A study of Mus musculus with 32 samples.

Results

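The genes described here are 10 receptor tyrosine kinase genes studied in malignant brain tumors: Egfr, Erbb2, Erbb3, Erbb4, Igf1r, Fgfr1, Pdgfra, Kit, Met and Ntrk3. They were picked by gene name as receptors known from brain tumors, with earlier results of these data known, and all 10 of them were found among the 37310 genes of the tumor count table. Their levels were compared between the hindbrain tumors of mouse models of Group 3 medulloblastoma, a malignant childhood tumor of the cerebellum in which MYC is often amplified. In GMYC mice (Glt1-tTA/TRE-MYC) the tetracycline transactivator tTA is made under the Glt1 promoter and switches on a MYC transgene, while in GTML mice the same Glt1-tTA driver switches on MYCN, and both were kept on the FVB/N strain. RNA was taken from biopsies of 6 GMYC and 8 GTML tumors, the labels name no treatment, and the labels give no age for the mice behind these biopsies. Cell lines of the same series were not analysed here. Both transgenes act in cells that use the Glt1 promoter, each tumor arose in its host brain, and a biopsy holds vessels, immune cells and normal brain cells besides tumor cells. In such bulk samples, fewer cells of a type and less RNA per cell cannot be told apart. Nothing in the labels states that each biopsy came from a different mouse, so the p-values measure the spread between these biopsies.

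Receptor tyrosine kinases are membrane proteins that bind a growth factor outside the cell, pair up and phosphorylate each other inside it. The phosphorylated tails recruit adaptor proteins that start the RAS-MAPK and PI3K-AKT cascades, and inhibitors such as phosphatases and Sprouty proteins damp the signal. EGFR, PDGFRA, MET and NTRK genes are known for amplifications or fusions in high-grade gliomas, IGF1R and ERBB receptors have been studied in medulloblastoma, and KIT and NTRK3 are receptors of developing cerebellar neurons.

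The total count per tumor lay between 4602294 and 7279811, and single counts of the 10 genes lay between 9 and 1525 reads. The median total was 7054382 in GMYC and 5584681.5 in GTML. Values are given as CPM, counts per 1000000 of a tumor's TMM-scaled total, and a gene was called where edgeR's quasi-likelihood test gave a Benjamini-Hochberg adjusted p under 0.05 over the 21024 genes tested. The tumors were also described by features that the labels do not give. Genes of small nucleolar RNAs held at least 0.3% of counts in GMYC tumors 1 to 4 and GTML tumors 1 and 2 (0.366% to 0.438%) and less in the other 2 GMYC and 6 GTML tumors (0.151% to 0.272%), a split that follows the column order of the table. Y-linked genes summed to between 291 and 469 CPM in all GMYC tumors and between 195 and 407 CPM in GTML tumors 1, 4, 6 and 7, but to at most 2.53 CPM in GTML tumors 2, 3, 5 and 8. The low Y-linked state thus occurred in GTML alone and is partly confounded with the model. Of 7 genes listed as Group 3 markers, all of them tested, 1 was called, Tubb3, which was lower in GTML (log2 fold change -0.44, adjusted p = 0.0226 by edgeR), and Otx2 was at 316 ± 35 CPM in GMYC (SD, n = 6) and 323 ± 48.6 CPM in GTML (SD, n = 8). Tubb3 is a general neuronal marker, and the paper read its TuJ1 staining as neuronal character. GTML tumor 2 stood apart, with 874 CPM for the sum of the 7 listed genes and 97.6 CPM of Crx, where the other GTML tumors held 1470 to 1920 CPM and 298 to 404 CPM and the GMYC tumors 1320 to 1900 CPM and 344 to 429 CPM. The study's text describes a GTML tumor with an SHH-like signature, and neither it nor the labels say which biopsy that was. The study's own tests of expression between the models used 7 GTML tumors classified as Group 3. All 8 were kept here, so the set of tumors differs from the study's. Without GTML tumor 2, edgeR called 6430 genes in place of 4459, Erbb4 had a log2 fold change of 1.94 (adjusted p = 0.0105) and Ntrk3 one of -1.39 (adjusted p = 0.0219), and the same count of 2 receptor genes was called.

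Erbb4 rose 4-fold in GTML and Ntrk3 fell 2.87-fold in GTML, and the other 8 genes did not pass the test. These 2 called genes of 10 (20%) stand beside 21.2% of all genes tested, with 11.5% called higher in GTML and 9.71% called higher in GMYC, so the share of receptor genes called was close to the background. None of the 10 had models that did not overlap in CPM, which held for 4.62% of all genes tested. None passed the stricter rule of adjusted p under 0.01 with an absolute log2 fold change above 1, which 3.22% of all genes passed. An unadjusted p under 0.05 was reached by 5 of the 10 and by 7938 of all genes tested. The median log2 fold change of the 10 genes was 0.18, beside 0.04 over all genes tested.

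**Figure D1:**
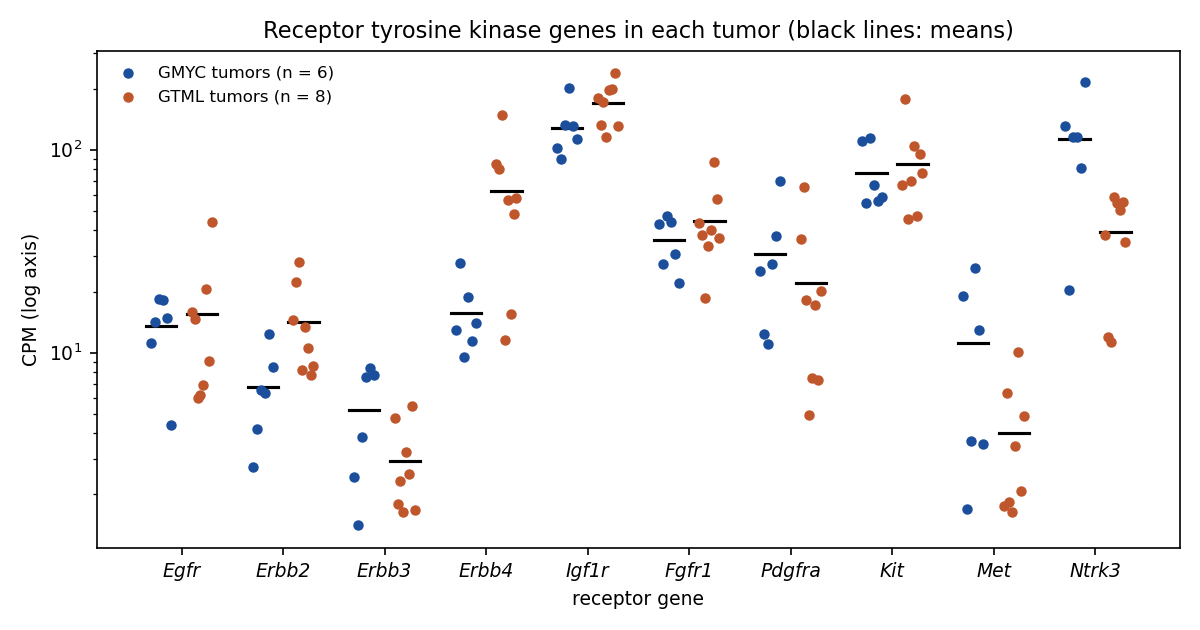
CPM of each receptor gene (log axis) in every tumor, GMYC in blue (n = 6) and GTML in orange (n = 8), with black lines at the means. Erbb4 had 6 of 8 GTML tumors above the highest GMYC tumor, and for every gene the ranges of the models overlapped.

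Promoter windows of the EGF receptor family genes with the largest log2 fold changes are shown because the driver of each model is a transcription factor that binds E-boxes. The mouse RefSeq table held a window of 250 bases before the gene start for 7 of the 10 genes, with none for Erbb3, Fgfr1 and Ntrk3. Erbb4 lies on the minus strand at chr1:69108060-69108309 of GRCm38.p6. Erbb2 lies on the plus strand at chr11:98412234-98412469 of the same build, where 236 bases are given because the window then reaches an annotated exon. Capitals mark a match to CANNTG, the general E-box of bHLH factors.
Erbb4: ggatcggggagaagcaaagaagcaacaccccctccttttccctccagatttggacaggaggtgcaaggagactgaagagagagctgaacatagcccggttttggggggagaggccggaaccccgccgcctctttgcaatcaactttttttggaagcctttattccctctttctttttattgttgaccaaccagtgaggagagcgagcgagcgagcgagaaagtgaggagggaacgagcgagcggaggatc
Erbb2: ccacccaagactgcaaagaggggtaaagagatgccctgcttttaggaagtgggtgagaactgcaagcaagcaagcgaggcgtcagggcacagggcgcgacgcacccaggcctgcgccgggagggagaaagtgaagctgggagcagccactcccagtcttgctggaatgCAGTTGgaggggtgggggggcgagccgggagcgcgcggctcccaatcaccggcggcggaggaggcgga
The window of Erbb4 had a GC content of 54.0% and that of Erbb2 66.0%. Searched on both strands, the MYC and MAX E-box CACGTG stood in the window of Met alone among the 7, beside 6.02% of all 32851 windows. The sequence TAATCC, bound by OTX and CRX factors, stood in 0 of the 7 and in 6.25% of all windows. CANNTG, which takes in CACGTG, stood in the windows of Pdgfra, Met and Erbb2 and in 66.2% of all windows.

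Among the EGF receptor family, Erbb4, which binds neuregulins, differed most. Its GMYC tumors lay between 9.48 and 27.6 CPM with a median of 13.5 CPM, and its GTML tumors between 11.5 and 149 CPM with a median of 57 CPM. The high values were those of GTML tumor 3 at 149 CPM, GTML tumor 1 at 85.2 CPM and GTML tumor 2 at 80.3 CPM. GTML tumors 4 and 6, at 11.5 and 15.5 CPM, lay inside the GMYC range, so the models overlapped. The means were 15.7 ± 6.61 CPM in GMYC (SD, n = 6) and 62.9 ± 43.7 CPM in GTML (SD, n = 8), a log2 fold change of 2.00 (SE 0.477, 95% interval 0.99 to 3.01) with an adjusted p of 0.0116 in edgeR's quasi-likelihood test. On the higher side of the small nucleolar RNA split the log2 fold change was 2.27 and on the lower side 2.13, with adjusted p of 0.19 and 0.114 in these smaller edgeR fits. With Y-linked expression as a covariate it was 1.24 (adjusted p = 0.12, edgeR), and the 4 GTML tumors with little Y-linked signal held 56.5 to 149 CPM, beside 11.5 to 85.2 CPM in the other 4.

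Erbb2 has no known ligand of its own and pairs with the other family members. It lay between 2.73 and 12.4 CPM in GMYC (median 6.46 CPM) and between 7.73 and 28 CPM in GTML (median 11.9 CPM), with 4 of 8 GTML tumors above the highest GMYC tumor. The log2 fold change was 1.06 (95% interval 0.26 to 1.86) and the adjusted p 0.0561 by edgeR's quasi-likelihood test, just outside the call. DESeq2 called it with an adjusted p of 0.0189, and edgeR did so without GMYC tumor 5 (0.038) or without GTML tumor 4 (0.0469). Its log2 fold change was 1.90 at the higher small nucleolar RNA share and 0.27 at the lower share. Exons of Mien1 overlap those of Erbb2 on the opposite strand, and whether the reads were counted by strand was not given in the sources used here.

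Egfr, the receptor of EGF and TGF-alpha, lay between 4.38 and 18.4 CPM in GMYC (median 14.4 CPM) and between 5.99 and 44.2 CPM in GTML (median 11.8 CPM). GTML tumor 8 stood alone at 44.2 CPM, with the next GTML tumor at 20.6 CPM. The log2 fold change of 0.20 (95% interval -0.76 to 1.16, adjusted p = 0.769 by edgeR) became -0.25 without that tumor. Erbb3, whose own kinase is weak and which signals through its partner, lay between 1.41 and 8.37 CPM in GMYC (median 5.69 CPM) and between 1.64 and 5.47 CPM in GTML (median 2.43 CPM). Its log2 fold change was -0.84 (95% interval -1.73 to 0.06, adjusted p = 0.157 by edgeR). Erbb3 had 4 GMYC values from 3.82 CPM upward, and 6 of the 8 GTML tumors lay below that.

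Igf1r, the receptor of IGF1 and IGF2, lay between 89.6 and 201 CPM in GMYC (median 122 CPM) and between 115 and 238 CPM in GTML (median 175 CPM), and the log2 fold change was 0.41 (95% interval 0.00335 to 0.82, adjusted p = 0.13 by edgeR). Without GMYC tumor 4, the highest of its model at 201 CPM, the adjusted p of edgeR was 0.032. Fgfr1, a receptor of fibroblast growth factors, lay between 22.1 and 47.1 CPM in GMYC (median 37 CPM) and between 18.6 and 86.9 CPM in GTML (median 39.3 CPM). For Fgfr1, 2 GTML tumors lay above the GMYC range and 1 below it, with a log2 fold change of 0.31 (95% interval -0.28 to 0.90, adjusted p = 0.429 by edgeR). The antisense gene Gm16159 shares exon sequence with Fgfr1 on the opposite strand.

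Pdgfra, which binds PDGF-A and marks oligodendrocyte progenitors, gave opposite values on the sides of the small nucleolar RNA split. It lay between 11 and 70.1 CPM in GMYC (median 26.3 CPM) and between 4.92 and 65.2 CPM in GTML (median 17.6 CPM), and the log2 fold change over all tumors was -0.47 (95% interval -1.61 to 0.68, adjusted p = 0.549 by edgeR), or -0.94 without GTML tumor 2. At the higher share the 4 GMYC tumors held 11 to 27.4 CPM and GTML tumors 1 and 2 held 36.5 and 65.2 CPM, a log2 fold change of 1.43 (adjusted p = 0.297, edgeR). At the lower share GMYC tumors 5 and 6 held 37.5 and 70.1 CPM and the 6 GTML tumors 4.92 to 20.2 CPM, a log2 fold change of -2.11 (adjusted p = 0.0267, edgeR). The difference between the sides was not tested. Of the 5 oligodendrocyte progenitor markers tested, 2 were called, Olig1 and Olig2, both lower in GTML, and none was at 0 in every tumor. The summed level of the 5 markers was 51.6 to 108 CPM in GMYC and 22.3 to 68.3 CPM in GTML. Cspg4 had the highest mean of them, 26.3 ± 11.9 CPM in GMYC and 27.6 ± 12.7 CPM in GTML, and was not called. In GTML the means of Olig1 and Olig2 were 3.46 and 4.93 CPM, so Cspg4 weighed most in the sum there. Spearman's rho between the sum and Pdgfra was 0.74 over the 8 GTML tumors and 0.60 over the 6 GMYC tumors. These values were not particular to progenitor markers or to Pdgfra. Pdgfra also had a rho of 0.74 with microglia and macrophage markers over the GTML tumors. With Group 3 markers it had 0.89 over the GMYC tumors. Erbb2 and Erbb3 each had a rho of 0.94 with the progenitor sum over the GMYC tumors. The part of progenitors or other cells in the Pdgfra values was not tested. Gm42802, Gm42803 and Mir7025 overlap exons of Pdgfra, the first pair on the opposite strand.

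Kit, the receptor of stem cell factor, lay between 54.7 and 114 CPM in GMYC (median 62.7 CPM) and between 45.6 and 177 CPM in GTML (median 73.8 CPM). GTML tumor 2 held 177 CPM, with the next GTML tumor at 104 CPM. The log2 fold change was 0.15 (95% interval -0.46 to 0.77, adjusted p = 0.72 by edgeR) and became -0.09 without that tumor. Mast cells are rich in Kit, and their 5 markers together reached at most 0.287 CPM in GMYC and 1.5 CPM in GTML. Cerebellar inhibitory neurons also use Kit, and 0 of their 5 tested markers were called, with summed levels of 3.38 to 79.4 CPM in GMYC and 3.1 to 100 CPM in GTML and none at 0 in every tumor. Their part in the Kit values was not tested.

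Met, the receptor of hepatocyte growth factor, lay between 1.69 and 26 CPM in GMYC (median 8.35 CPM) and between 1.64 and 10.1 CPM in GTML (median 2.76 CPM). GMYC tumors 1, 4 and 5, at 19.1, 26 and 13 CPM, were above every GTML tumor, and GMYC tumors 2, 3 and 6 were not. The log2 fold change was -1.47 (95% interval -2.72 to -0.23) with an adjusted p of 0.0814 in edgeR's quasi-likelihood test, and edgeR called it without GMYC tumor 2 (0.0411) or without GTML tumor 6 (0.0443). Over the 6 GMYC tumors the rho of Met was 0.94 with the summed inhibitory neuron markers given above, 0.89 with mature oligodendrocyte markers and 0.83 with astrocyte markers. Over the 8 GTML tumors these values were 0.62, 0.41 and 0.19. Of all the marker sums, the highest rho in GTML was 0.86 with endothelial markers and the lowest was -0.86 with Group 3 markers. With Group 3 markers the rho was 0.37 over the GMYC tumors. The part of any of these cell types in the Met values was not tested.

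Ntrk3, the receptor TRKC of neurotrophin-3, was the other called gene. Its GMYC tumors lay between 20.4 and 216 CPM with a median of 116 CPM, and its GTML tumors between 11.3 and 58.7 CPM with a median of 44.1 CPM. In GMYC 5 of 6 tumors lay above every GTML tumor, and GMYC tumor 2, at 20.4 CPM, lay inside the GTML range. GTML tumors 2 and 3 were lowest, at 12 and 11.3 CPM. The means were 113 ± 64 CPM in GMYC (SD, n = 6) and 39.4 ± 19.1 CPM in GTML (SD, n = 8), a log2 fold change of -1.52 (SE 0.436, 95% interval -2.45 to -0.60) with an adjusted p of 0.0239 in edgeR's quasi-likelihood test. The call ended with limma-voom (adjusted p = 0.0513), without GMYC tumor 6 (edgeR, 0.0608) and with the Y-linked covariate (edgeR, log2 fold change -1.13, 0.182). The log2 fold change was -1.92 at the higher small nucleolar RNA share (adjusted p = 0.383, edgeR) and -1.76 at the lower share (adjusted p = 0.0434, edgeR). Of 6 cerebellar granule neuron markers tested, 1 was called higher in each model, with summed levels of 207 to 375 CPM in GMYC and 184 to 306 CPM in GTML and none at 0 in every tumor. The rho of Ntrk3 with that sum was 0.89 over the 6 GMYC tumors and 0.21 over the 8 GTML tumors. The GMYC value was not particular to granule neuron markers. Over the GMYC tumors Ntrk3 had a rho of 0.71 with astrocyte markers, 0.71 with Group 3 markers and -0.77 with microglia and macrophage markers. Over the GTML tumors these values were -0.26, -0.02 and -0.50. The part of any of these cells in the difference was not tested.

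**Figure D2:**
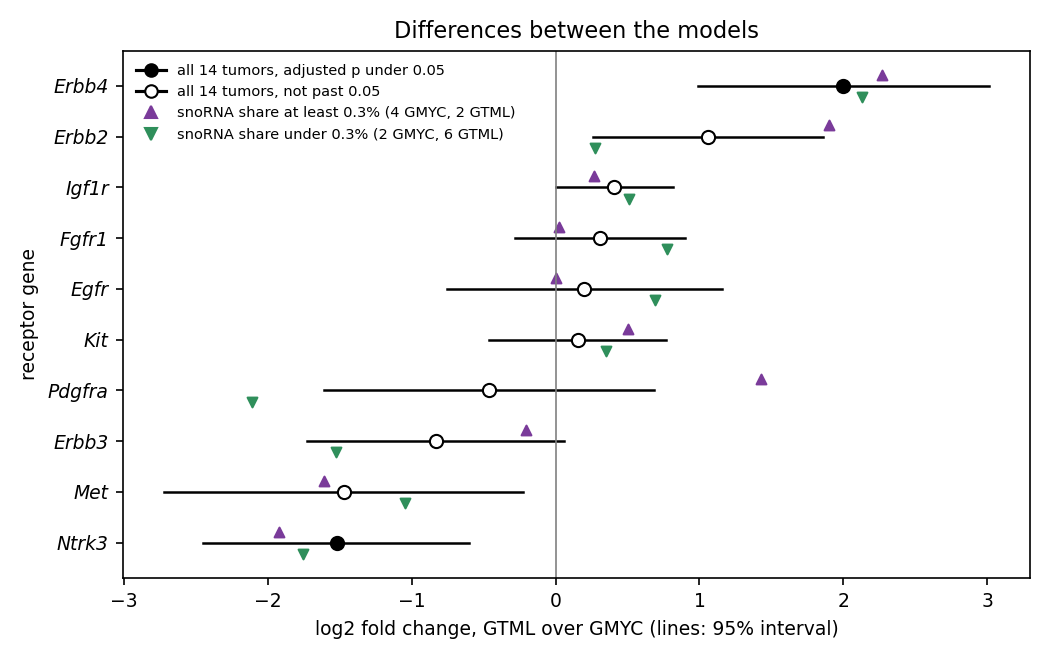
Log2 fold change of each receptor gene, GTML over GMYC, with its 95% interval over all 14 tumors (circles, filled where called) and the values within each side of the small nucleolar RNA split (triangles). Erbb4 lay at 2.27 and 2.13 on the sides and Ntrk3 at -1.92 and -1.76, while Pdgfra lay at 1.43 on one side and -2.11 on the other.

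Per kilobase of exon, a scale on which genes can be compared, Kit and Igf1r were the most abundant of the 10 in both models. In GMYC the mean levels ran from Kit (8.62 ± 3.13 CPM per kb) and Igf1r (7.64 ± 2.34) through Ntrk3 (3.75 ± 2.12), Fgfr1 (3.62 ± 1.05) and Pdgfra (3.05 ± 2.17) to Met, Erbb2, Erbb4, Egfr and Erbb3 (1.45 down to 0.869 CPM per kb). In GTML they ran from Igf1r (10.1 ± 2.49 CPM per kb) and Kit (9.58 ± 4.75) through Erbb4 (5.09 ± 3.53), Fgfr1 (4.49 ± 2.05), Erbb2 (2.72 ± 1.42) and Pdgfra (2.21 ± 2.01) to Egfr, Ntrk3, Met and Erbb3 (1.36 down to 0.487 CPM per kb). The ranges of every pair of neighbours in either order overlapped. Neighbouring genes were not compared within each tumor, and the order was not tested. Erbb4 stood at place 8 in GMYC and place 3 in GTML, and Ntrk3 at place 3 in GMYC and place 8 in GTML. With the longest transcript as the length, Erbb4 stood at places 9 and 4, Ntrk3 at places 4 and 7, and Kit came before Igf1r in GTML as well.

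The summed level of the 10 genes was 32.8 ± 6.37 CPM per kb in GMYC (SD, n = 6) and 37.9 ± 7.65 CPM per kb in GTML (SD, n = 8). Erbb4 made up 4.32% of that sum on average in GMYC (2.18% to 10.7%) and 13% in GTML (3.47% to 31.8%), and Ntrk3 10.9% in GMYC and 3.78% in GTML. The 4 EGF receptor family genes summed to 2.95 to 6 CPM per kb in GMYC and 3.33 to 18.3 CPM per kb in GTML. The highest sum of that family, 18.3 CPM per kb, was in GTML tumor 3, where Erbb4 and Erbb2 were both at their maximum.

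**Figure D3:**
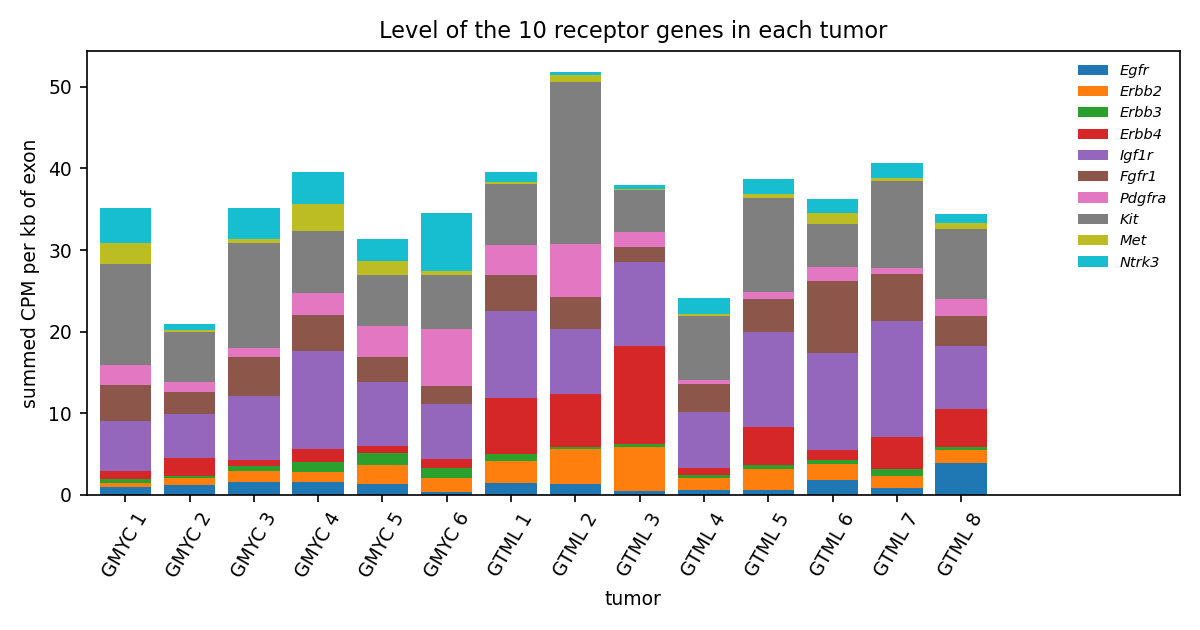
Summed level of the 10 receptor genes in each tumor, in CPM per kilobase of exon, stacked by gene. The sums ran from 20.9 to 39.5 in GMYC and from 24.1 to 51.8 in GTML, with a wide Erbb4 segment in GTML tumor 3 and wide Kit and Igf1r segments in both models.

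Erbb4, Erbb2 and Pdgfra ran together across the GTML tumors, and Ntrk3 ran against them. Over the 8 GTML tumors, Spearman's rho on log2 CPM was 0.81 between Erbb4 and Erbb2 and 0.76 between Erbb4 and Pdgfra. Ntrk3 had a rho of -0.86 with Erbb4, -0.83 with Pdgfra and -0.81 with Erbb2. Igf1r went with Erbb3 (rho 0.91) and with Fgfr1 (rho 0.81) over the same 8 tumors. Over the 6 GMYC tumors the rho between Erbb4 and Ntrk3 was -0.09 and between Erbb4 and Erbb2 -0.43, while Pdgfra had a rho of 0.14 with Erbb4 and 0.49 with Ntrk3. These values share libraries and depth, describe these tumors and carry no test.

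**Figure D4:**
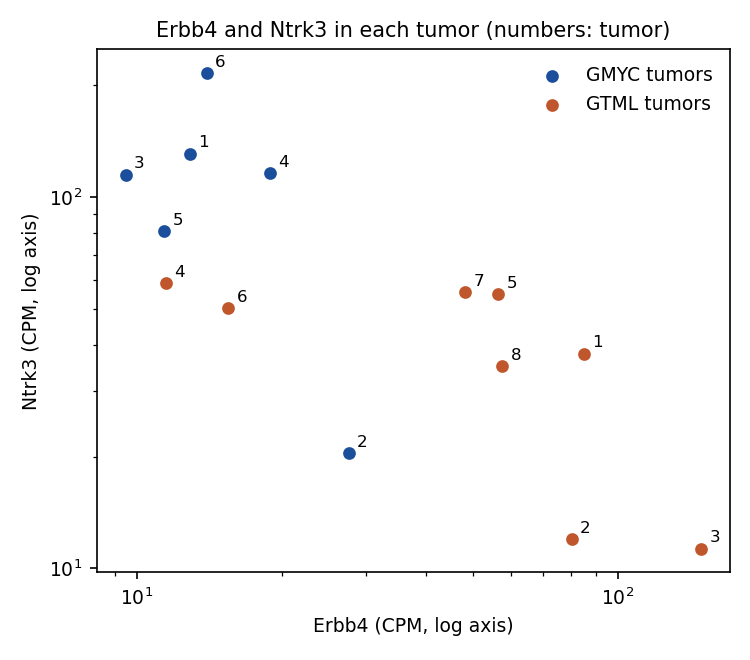
CPM of Ntrk3 against CPM of Erbb4 in each tumor (log axes), numbered by tumor, GMYC in blue and GTML in orange. GTML tumors 2 and 3 joined low Ntrk3 (12 and 11.3 CPM) to high Erbb4 (80.3 and 149 CPM), and GMYC tumor 2 had the lowest Ntrk3 (20.4 CPM) and the highest Erbb4 (27.6 CPM) of its model.

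The genes whose pattern over all 14 tumors was most like that of Erbb4 were BC067074 (rho 0.94) and Wdfy1 (rho 0.91), on log2 CPM. BC067074 held 3.28 ± 1.55 CPM in GMYC (SD, n = 6) and 9.22 ± 4.51 CPM in GTML (SD, n = 8), and Wdfy1 held 95.3 ± 25.7 and 131 ± 21.7 CPM and was not called. Those most like Ntrk3 were Gm9885 (rho 0.95) and Minar1 (rho 0.88). All were picked as the highest rho among all genes tested, with both models pooled. A difference between the models can itself raise such a rho. Gm9885 is an antisense gene inside the Ntrk3 gene on the opposite strand, with no shared exon, and its reads and those of Ntrk3 introns cannot be told apart without strand. It held 12.2 ± 7.26 CPM in GMYC and 3.01 ± 1.73 CPM in GTML.

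Around the receptors, 152 tested genes of 7 lists by role were read with the same fit. Of these 26 (17.1%) were called, 16 higher in GTML and 10 higher in GMYC, beside the 21.2% of all genes given above. List by list, the share called ran from 11.1% for the EGF family ligands to 21.4% for the ligands of the other receptors. In 7 of the 152 (4.61%) the models did not overlap, which was the background share, 4.62% of all genes tested. Among these were Insr, Fos and Ccnd1, higher in GTML, and Crk, Nck1 and Socs4, higher in GMYC. Areg, Ereg, Mst1r, Ros1 and Fosl1 were too low to test, and Spry3 was not analysed here.

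Among the ligands, 1 of 9 EGF family genes tested rose in GTML, Nrg2, a neuregulin that binds ERBB3 and ERBB4. Nrg2 lay between 0.483 and 3.44 CPM in GMYC and between 2.11 and 11.3 CPM in GTML, a log2 fold change of 2.27 (SE 0.437) with an adjusted p of 0.00544 by edgeR. In 7 of 8 GTML tumors it was above every GMYC tumor, GTML tumor 2 being the exception at 2.11 CPM. Nrg1 held 4.04 ± 2.28 CPM in GMYC and 3.43 ± 1.97 CPM in GTML, and Egf 26.1 ± 11 CPM in GMYC and 15.1 ± 4.89 CPM in GTML, neither called. The median log2 fold change of the EGF family ligands was 0.39.

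Of the 14 ligands of the other receptors, 3 were called, with a median log2 fold change of 0.70. Hgf, the ligand of MET, rose in GTML from 3.89 ± 1.42 to 12.9 ± 8.39 CPM (log2 fold change 1.72, adjusted p = 0.0171 by edgeR), whereas Met itself had a log2 fold change of -1.47 that was not called. GTML tumors 1, 5, 7 and 8 held 16.2 to 24.1 CPM of Hgf, and the other 4 held 3.47 to 6.83 CPM. Fgf17 was higher in GTML (log2 fold change 2.17, adjusted p = 0.0301 by edgeR) at a mean of 1.57 CPM, and Fgf5 was lower (log2 fold change -2.22, adjusted p = 0.0346 by edgeR) at a mean of 0.668 CPM. Of the alternative fits, Fgf17 was called in 13 of 24 and Fgf5 in 11 of 25. Without GMYC tumor 3, GMYC tumor 5, GTML tumor 7 or GTML tumor 8, the count of 3 in this list fell to 1. Ntf3, the ligand of TRKC, held 4.55 ± 3.98 CPM in GMYC and 8.66 ± 7.17 CPM in GTML, and Kitl, the ligand of KIT, 7.24 ± 2.68 and 5.47 ± 4.93 CPM, neither called.

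Of 28 other receptor tyrosine kinases tested, 4 rose in GTML and 1 fell, with a median log2 fold change of 0.40. Insr, the insulin receptor and the closest relative of Igf1r, lay between 88.7 and 153 CPM in GMYC and between 177 and 290 CPM in GTML, so that the models did not overlap. Its log2 fold change was 0.88 (SE 0.156, adjusted p = 0.00355 by edgeR), and it was called in 24 of 25 alternative fits. Alk, a receptor mutated in neuroblastoma, rose from a low 0.476 ± 0.285 to 1.82 ± 1.11 CPM (adjusted p = 0.0135 by edgeR). Kdr, the VEGF receptor of vessels, and Tyro3 were the others that rose, and Musk, the receptor of the neuromuscular junction, fell from 5.37 ± 4.52 to 1.23 ± 1.1 CPM (adjusted p = 0.0248 by edgeR). Of 7 endothelial markers tested, 2 were called higher in GTML, Kdr itself and Esam, and none was at 0 in every tumor. Their summed levels were 70.4 to 187 CPM in GMYC and 138 to 288 CPM in GTML. These sums contain Kdr, which held 31.4 ± 20.5 CPM in GMYC and 79.4 ± 46.6 CPM in GTML, so they are not independent of it. Log2 fold changes were positive for 5 of the 7, and those of Cdh5 (-0.07) and Cldn5 (-0.67) were negative. The part of vessels in the Kdr value was not tested.

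**Figure D5:**
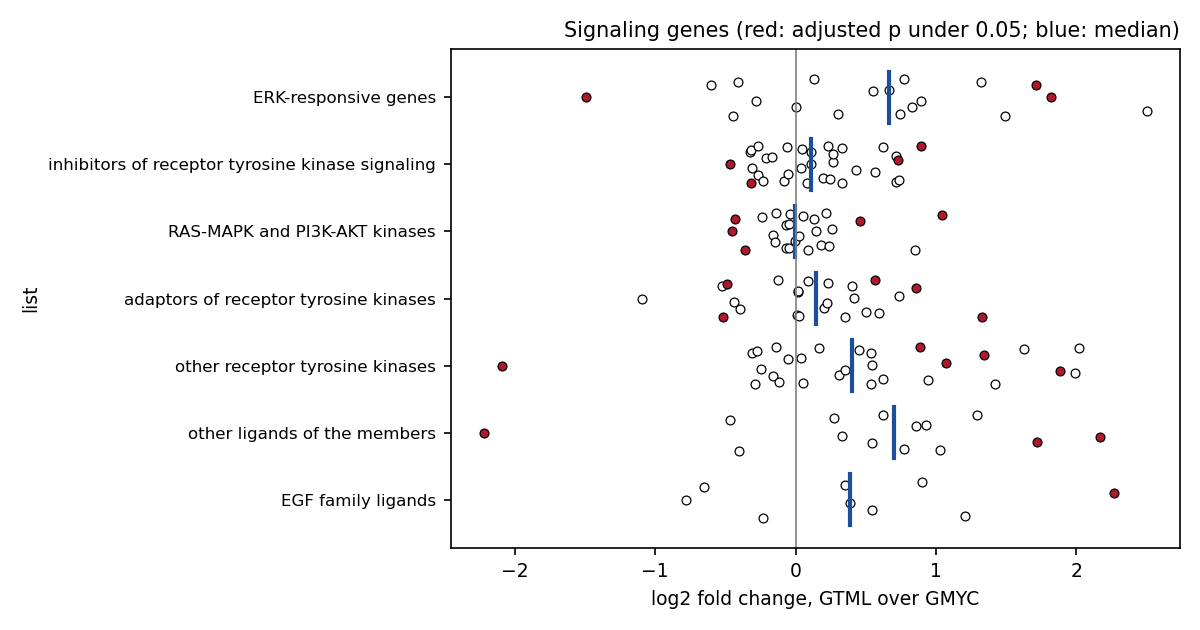
Log2 fold change, GTML over GMYC, of each tested gene of the 7 lists by role, red where called, with blue lines at the medians. The medians lay between -0.00286 for the RAS-MAPK and PI3K-AKT kinases and 0.70 for the other ligands, and red points lay on both sides of 0 in every list but the EGF family ligands.

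Of 24 adaptors tested, 3 rose and 2 fell in GTML, with a median log2 fold change of 0.14. Irs2, which carries the signal of the insulin and IGF1 receptors, rose from 24.9 ± 11.8 to 62.7 ± 14.2 CPM (log2 fold change 1.33, adjusted p = 0.00539 by edgeR), and Gab2, a scaffold for PI3K and SHP2, rose by 0.86 on the log2 scale (adjusted p = 0.0121). The SH2 and SH3 adaptors Crk and Nck1 fell by 0.51 and 0.49 on the log2 scale (adjusted p = 0.00502 and 0.0134 by edgeR). Of 25 core kinases and subunits tested, 2 rose and 3 fell, with a median of -0.00286. Pik3r1, the regulatory subunit of PI3K, rose from 125 ± 29.6 to 258 ± 107 CPM (adjusted p = 0.0201), and Rptor of the mTORC1 complex rose by 0.46 on the log2 scale (adjusted p = 0.0302) but was called in 11 of 25 alternative fits. Map2k1, which encodes MEK1, fell by 0.43 on the log2 scale (adjusted p = 0.0166 by edgeR), and Mapk3, which encodes ERK1, fell as well.

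Of 33 inhibitors tested, 2 rose and 2 fell, with a median log2 fold change of 0.11. The adaptor-type inhibitors Sh2b3 and Dok2 rose by 0.73 and 0.90 on the log2 scale (adjusted p = 0.0138 and 0.0404 by edgeR), and Dok2 was called in 6 of 25 alternative fits. Socs4, of the suppressors of cytokine signaling, fell by 0.47 on the log2 scale (adjusted p = 0.00574 by edgeR). Of 19 ERK-responsive genes tested, 2 rose and 1 fell, with a median of 0.67. Ccnd1, the cyclin of the G1 phase, lay between 14.4 and 75.8 CPM in GMYC and between 86.5 and 156 CPM in GTML, so the models did not overlap, and its log2 fold change was 1.71 (SE 0.291, adjusted p = 0.00323 by edgeR). Fos, an immediate early gene, lay between 5.35 and 9.9 CPM in GMYC and between 10.8 and 68.3 CPM in GTML (adjusted p = 0.0144 by edgeR), with GTML tumors 3 and 6 highest at 64.7 and 68.3 CPM. Etv1, an ETS factor, fell by 1.49 on the log2 scale (adjusted p = 0.0474) and was called in 6 of 25 alternative fits.

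Photoreceptor genes are also used by Group 3 tumor cells themselves, and Crx and Nrl stand in both lists. Of 7 photoreceptor markers tested, 5 were called higher in GTML and none was at 0 in every tumor. Their median log2 fold change was 4.44, with 6 of the 7 positive. The summed levels were 449 to 600 CPM in GMYC and 163 CPM (GTML tumor 2) to 1470 CPM (GTML tumor 3) in GTML. In the GMYC tumors Crx, at the levels given above, held most of the sum, so a rho with the sum does not describe the called genes alone. The rho of Erbb4 with that sum was 0.43 over the 8 GTML tumors and 0.49 over the 6 GMYC tumors, and GTML tumor 2, lowest in the photoreceptor sum, held 80.3 CPM of Erbb4. None of 8 astrocyte markers was called, with summed levels of 809 to 1440 CPM in GMYC and 546 to 986 CPM in GTML. Their log2 fold changes had a median of -0.79, and 0 of the 8 were positive. Within these sums Slc1a2, the Glt1 gene whose promoter drives both transgenes, held 702 ± 103 CPM in GMYC and 587 ± 156 CPM in GTML. None of 8 microglia and macrophage markers, 5 pericyte markers or 5 meningeal fibroblast markers was called either. The part of these programs and cells in the receptor values was not tested.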

How the data were processed

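RNA of fresh-frozen tumor biopsies was sequenced on an Ion Torrent platform. The paper describes GTML reads as partly generated before the study, so model and time of sequencing cannot be fully told apart. The authors aligned reads to mouse mm9 with STAR and then Bowtie and counted them per gene with featureCounts, and they deposited raw counts of 37310 genes as whole numbers. The submitters' processing notes name STAR 2.4.0, Bowtie2 2.2 and Subread 1.5.2. Another deposited table holds 18 columns whose names match no sample label, and they were not used. Symbols and exon lengths came from GENCODE vM21 on GRCm38 by Ensembl identifier (32620 genes matched, 87.4%).

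Counts with CPM above 1 in at least 3 tumors were tested with edgeR 4.0.16 in R 4.3.3 (TMM, quasi-likelihood test, Benjamini-Hochberg adjustment), all 14 tumors in the fit. CPM per kb divides by the union of exons. Intervals of log2 fold changes are at 95% and use the fit's degrees of freedom. Log2 CPM for rho used a prior count of 2. Alternatives were limma-voom (limma 3.58.1), DESeq2 1.42.0, library size without TMM, other filters, a stricter call, the tumor number as a block, each tumor left out, the small nucleolar RNA split at 0.3% and a Y-linked covariate. Code was tested on simulated counts. Figures used matplotlib 3.10.9 in Python 3.11.15.

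The receptors and lists were chosen with earlier results of these data known. Named genes were all receptors, per list the 2 called genes with the smallest p in each direction, and per called receptor the 2 genes with the highest rho; some genes that this rule names are not reported here. Outside this rule, Kdr, Tyro3, Mapk3, Nrg1, Egf, Ntf3, Kitl, Olig1, Olig2, Otx2, Crx, Nrl, Tubb3 and Slc1a2 were named after their values were seen. Total counts of 4602294 to 7279811 per tumor set the precision of low genes. Of the pairs of tumors of one model, none agreed within sampling noise.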

Additional observations from a re-analysis of the deposited data

Results flagged for a closer look

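In each model the highest and lowest tumor was examined for all 10 receptor genes, 20 groups in all, by the gap to the nearest tumor divided by the range (Dixon's criterion, 95% level). This flags about 1 group in 20 by chance, and 2 were found. Egfr in GTML tumor 8 stood at 44.2 CPM, with the next tumor at 20.6 CPM and a gap of 0.618 of the range. Kit in GTML tumor 2 stood at 177 CPM, with the next tumor at 104 CPM and a gap of 0.558 of the range.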

How the results depend on the processing

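Of the 10 receptor genes, 2 were called with all tumors. That count was 0 under the stricter call, with the replicate block, at a small nucleolar RNA share of at least 0.3% only and with the Y-linked covariate, 1 with limma-voom, and 1 for numbers 1 to 6 with no block, an alternative chosen after seeing the data. Leaving out 1 tumor gave 1 (GMYC tumor 6) to 3. Of the 152 genes around them, 26 were called: 3 under the stricter call, 3 with the replicate block, 16 for numbers 1 to 6 with no block, 0 and 15 at a share of at least and under 0.3%, 10 with the Y-linked covariate, and 16 to 38 without 1 tumor, the lowest without GMYC tumor 3. Over all genes, 4459 were called, 251 with the block, 1691 with the Y-linked covariate, 5852 by DESeq2, 2 at the higher share (2420 at an unadjusted p under 0.05) 2617 without GMYC tumor 3 and 6430 without GTML tumor 2. Correlations of same-numbered tumors' deviations ran from -0.212 to 0.24, so the tumors share only a number, and the block also drops GTML tumors 7 and 8. Egfr reversed to -0.29 with the block, -0.20 for numbers 1 to 6 with no block, -0.00028 at the higher share, -0.12 with the Y-linked covariate and -0.247 without GTML tumor 8, the lowest of fits without 1 tumor, which reached 0.323 without GTML tumor 3. Pdgfra reversed to 1.43 at the higher share, and Kit to -0.12 with the Y-linked covariate and -0.0869 without GTML tumor 2, in a range up to 0.301 without GMYC tumor 3. The block gave Erbb4 1.69 (adjusted p = 0.116) and Ntrk3 -1.57 (0.0589) in edgeR. Erbb4 kept its direction in 25 of 25 alternatives and its call in 21, including 14 of 14 fits without 1 tumor, and Ntrk3 in 25 and 19. The causes were not tested. Depth limits Erbb3 and Met most, with counts down to 9.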
